A study of Mus musculus with 10 samples.

Results

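The baseline transcriptome of marrow progenitors was described from the 5 vehicle libraries of the series, which are 5 of its 10 samples. The rule took every gene of those 5 libraries and no value chose them, so 38887 listed genes were described. The RNA came from hematopoietic progenitor cells of bone marrow. The mice bore Lewis lung carcinoma, a transplantable mouse lung tumour line, and received vehicle for 2 weeks. The titles call the same samples untreated, and the other 5 samples received the CK2 inhibitor BMS-595 and were not used here. All 5 libraries therefore share the tumour and the vehicle, and no tumour-free mouse entered the description. The strain is named only as tumour-bearing mouse. The age, the sex, the gate that defined a progenitor and whether each library was a separate mouse are not stated in the labels, so the spread between libraries may be partly technical. With 1 group there was no comparison between conditions and no test.

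Blood-forming marrow holds a small stem cell pool and a much larger set of progenitors that divide and commit to granulocyte, monocyte, red cell, megakaryocyte, basophil, eosinophil or lymphoid fates. Commitment is read from transcription factors (GATA1 for red cells and megakaryocytes, PU.1 and C/EBPα for granulocytes and monocytes) and from the first products of each fate, such as myeloperoxidase in granule-forming cells or platelet factor 4 in megakaryocytes. Haemoglobin, late neutrophil granules and surface immunoglobulin appear later, in cells that a progenitor preparation is meant to leave out.

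Levels between genes are given in FPKM (fragments per kilobase of transcript, scaled to the size of the library), which are per length. SDs, list scores and counts of list members highest or lowest in a library use log2 CPM (counts scaled to the size of the library). Folds and highest or lowest libraries given beside the FPKM of a single gene are in FPKM. A gene is called expressed at 1 FPKM or more in all 5 libraries and not detected under 0.1 FPKM in all 5. The libraries held 37569160 to 43636152 estimated counts, and 87.6% to 88.5% of those fell in protein-coding genes. Of 21213 protein-coding genes, 10470 (49.4%) were expressed, 7395 (34.9%) were not detected, and the median gene stood at 1.18 FPKM. Counts of expressed or undetected list members below are to be read beside these 49.4% and 34.9%. Over all listed genes, noncoding ones included, 11446 (29.4%) were expressed.

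The 6 marker genes were expressed in all 5 libraries, and they belonged to different lineages. Mpo, which encodes the myeloperoxidase of primary granules, stood at 1166, 1704, 1503, 1333 and 836 FPKM in libraries 1 to 5 (mean 1308 ± 331, SD, n = 5) and ranked 80 among protein-coding genes. Library 2 was highest and library 5 lowest for Mpo, 2.04-fold apart. Kit, the stem cell factor receptor that marks progenitors, stood at 59.2, 55.3, 58.0, 59.5 and 52.5 FPKM (mean 56.9 ± 2.98), so its libraries lay within 1.13-fold of each other. Cd34, a surface sialomucin of progenitors and endothelium, stood at 74.0, 85.6, 87.1, 79.7 and 55.9 FPKM (mean 76.5 ± 12.6), again lowest in library 5.

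Gata1, the master factor of red cells and megakaryocytes, had its highest level in library 5 and its lowest in library 2, the ends that Mpo had reversed. Its levels were 92.4, 79.4, 85.8, 89.1 and 104 FPKM (mean 90.1 ± 8.99). Tubb1, the β-tubulin of the platelet marginal band, stood at 224, 188, 244, 187 and 201 FPKM (mean 209 ± 24.8), highest in library 3. Jchain, which joins the subunits of secreted IgA and IgM, stood at 438, 501, 547, 522 and 402 FPKM (mean 482 ± 60.4) and ranked 172, above Tubb1 (358), Gata1 (993), Cd34 (1210) and Kit (1656). By FPKM the order was Mpo, Jchain, Tubb1, Gata1, Cd34 and Kit, and the ranges over the libraries overlapped for Gata1 and Cd34 and for Cd34 and Kit. Kit and Cd34, the markers of progenitors, were thus present beside Jchain and Tubb1, which mark plasma cells and platelet-forming cells. The share of each cell type was not measured.

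**Figure D1:**
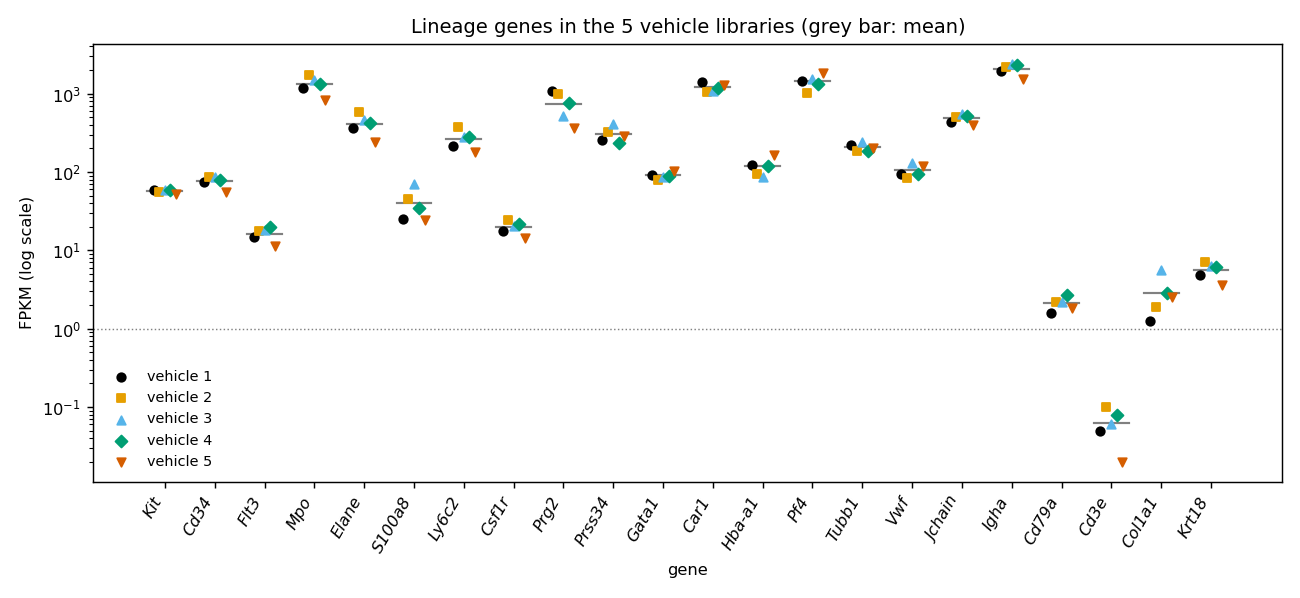
FPKM on a log axis of the 6 marker genes and of further genes of each lineage, with 1 point for each of the 5 vehicle libraries, a grey bar at the mean and a dotted line at 1 FPKM. Mpo runs from 836 to 1704 FPKM and Kit from 52.5 to 59.5 FPKM, and library 5 is lowest for Mpo, Kit, Cd34 and Jchain and highest for Gata1.

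The ranking was led by translation, cytoskeleton and chromatin genes. Several structural RNAs stood above every protein-coding gene: the signal recognition particle RNAs Rn7s1 and Rn7s2 were each listed at 178606 ± 6197 FPKM, with identical values in 5 of 5 libraries, and Rn7sk followed at 94041. They are near-identical copies, so their separate levels are uncertain. FPKM divide by length, and the apparent effective length of Rn7s1 was 134 bases. Structural RNAs took 6.98% to 7.43% of the counts. Among protein-coding genes Eef1a1, the elongation factor that brings tRNA to the ribosome, ranked 1 at 7741 ± 183 FPKM and also ranked 1 by counts. Actb, cytoplasmic actin, ranked 5 at 3388 FPKM and 2 by counts.

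Of the 98 protein-coding genes with a mean of at least 1000 FPKM, 58 encode ribosomal proteins and 18 encode histones. Among the 15 highest were Eef1a1, Rps12-ps3, Rplp1, Rpl41, Actb, Rpl13a, Hist1h4d, Rpl32, Rpl23a, Rps27rt, Rps24, Rps2, Rps18 and Hist1h2bb. Some of these are copies that share sequence with other genes, so their single levels are uncertain: Rps12-ps3 ranked 2 by FPKM and 21 by counts, and Rps27rt ranked 10 and 211. Hist1h4d, a replication-dependent histone H4 gene, ranked 7 by FPKM and 136 by counts with an apparent effective length of 226 bases. Only 55 genes were in the top 100 by both FPKM and CPM.

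The 326 highest genes held 50% of the summed protein-coding FPKM. The 101 genes picked by an Rps, Rpl or Rplp symbol alone held 22.1%, and such symbols can take in genes that encode no ribosomal protein. Among the ranked genes, the lineage products stood just under the translation genes: Pf4 ranked 76, Mpo 80, Car1 87, Ppbp 117, Prg2 123, Car2 128, Prtn3 150, Ctsg 169 and Elane 187. Immunoglobulin genes are outside the protein-coding class and have no rank here. Among them Igkc had a mean of 3436 FPKM, above that of Pf4. Mpo was higher by counts, where it ranked 5.

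**Figure D2:**
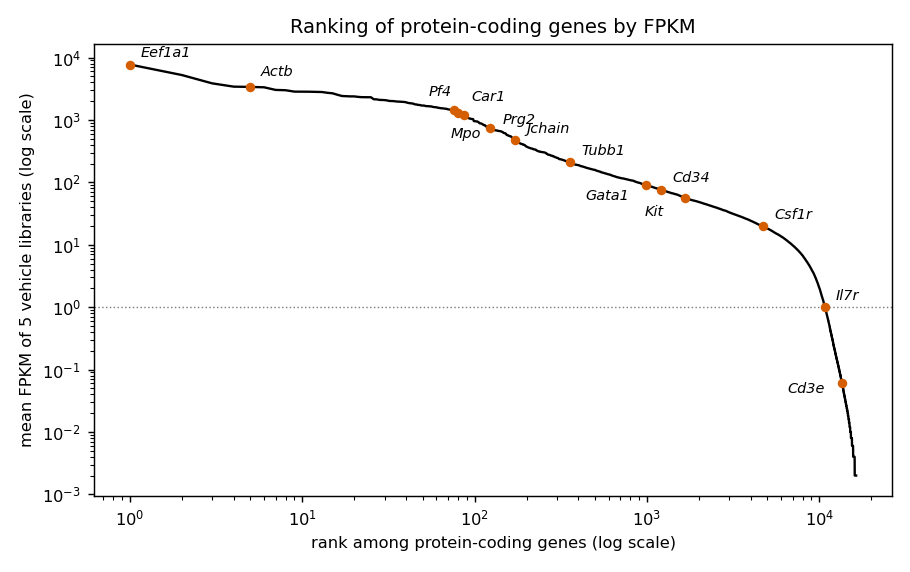
Mean FPKM of protein-coding genes against their rank, both on log axes, with named genes marked and a dotted line at 1 FPKM; genes at 0 cannot be drawn. Eef1a1 is at the top at 7741 FPKM, Pf4, Mpo and Car1 lie together at ranks 76 to 87, and Kit is at rank 1656.

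Promoters of 5 lineage genes are shown to give the sequence at the start of genes that report a granulocyte, eosinophil, basophil, megakaryocyte and plasma cell fate. Each run is the 250 bases before the transcription start in RefSeq (GRCm38.p6), written 5′ to 3′ on the strand of the gene.
Ctsg (cathepsin G of primary granules), chr14:56102575-56102824, minus strand: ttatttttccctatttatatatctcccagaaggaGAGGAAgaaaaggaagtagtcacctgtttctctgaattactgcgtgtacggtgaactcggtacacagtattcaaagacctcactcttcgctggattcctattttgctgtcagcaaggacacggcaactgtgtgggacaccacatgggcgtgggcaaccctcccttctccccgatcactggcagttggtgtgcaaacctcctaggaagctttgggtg
Epx (eosinophil peroxidase), chr11:87875537-87875786, minus strand: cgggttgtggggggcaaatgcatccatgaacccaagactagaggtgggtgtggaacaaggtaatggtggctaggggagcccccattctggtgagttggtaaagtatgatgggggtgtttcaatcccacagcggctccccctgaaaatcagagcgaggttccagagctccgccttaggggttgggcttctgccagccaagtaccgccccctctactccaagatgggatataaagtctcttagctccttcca
Prss34 (a basophil serine protease), chr17:25298144-25298393, plus strand: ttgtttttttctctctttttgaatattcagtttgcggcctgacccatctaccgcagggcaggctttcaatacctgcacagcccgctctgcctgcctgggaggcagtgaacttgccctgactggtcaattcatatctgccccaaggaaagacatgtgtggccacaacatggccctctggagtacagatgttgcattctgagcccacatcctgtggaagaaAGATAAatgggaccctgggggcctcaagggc
Pf4 (platelet factor 4), chr5:90772185-90772434, plus strand: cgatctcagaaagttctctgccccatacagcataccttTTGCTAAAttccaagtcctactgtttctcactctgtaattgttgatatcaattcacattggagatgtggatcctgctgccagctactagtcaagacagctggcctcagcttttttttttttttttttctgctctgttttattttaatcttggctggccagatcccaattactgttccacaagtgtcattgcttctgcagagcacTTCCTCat
Jchain (the joining chain of IgA and IgM), chr5:88527898-88528147, minus strand: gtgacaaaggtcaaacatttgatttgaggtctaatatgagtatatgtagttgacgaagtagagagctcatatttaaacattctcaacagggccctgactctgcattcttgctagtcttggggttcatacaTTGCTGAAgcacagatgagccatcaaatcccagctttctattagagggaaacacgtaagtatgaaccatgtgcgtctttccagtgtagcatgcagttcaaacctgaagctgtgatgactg
Capitals mark matches to 3 motifs searched on both strands: AGATAA for GATA factors, GAGGAA as the core read by PU.1, and TTNNGCAA for C/EBP factors. No printed matches overlap. Ctsg held GAGGAA with its first base at -216, Prss34 held AGATAA at -31, and Jchain held TTGCTGAA, a C/EBP match on the other strand, at -120. Pf4 held TTCCTC at -8 and TTGCTAAA at -212, and Epx held none of the 3. Of 32851 windows of this length in the RefSeq table, 9.99% held the GATA letters, 23.3% the PU.1 core and 9.56% the C/EBP letters. These matches are letters in a window and no binding was measured.

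The primary granule list had a median of 78.5 FPKM and the late neutrophil list 1.91. All 16 listed primary granule genes were expressed: after Mpo came Calr, an endoplasmic reticulum chaperone, at 812 to 954 FPKM, and the neutrophil serine proteases Prtn3 (402 to 826), Ctsg (336 to 624) and Elane (240 to 583). Elane, neutrophil elastase, stood at 366, 583, 453, 415 and 240 FPKM in libraries 1 to 5, the same order as Mpo. Of 25 late neutrophil genes, 12 were expressed (48%, near the 49.4% of all protein-coding genes) and 2 were not detected. The calprotectin subunit S100a8 stood at 25.01, 45.4, 69.1, 34.7 and 24.1 FPKM and its partner S100a9 at 7.63, 19.2, 40.9, 12.7 and 14.7 FPKM, both highest in library 3. Ltf, lactoferrin of secondary granules, reached only 0.20 to 1.90 FPKM and Ly6g, the surface marker of mature neutrophils, 0.00 to 0.29.

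Of 26 monocyte and macrophage genes, 20 were expressed (13 at a limit of 2 FPKM), led by Ly6c2, a surface marker of classical monocytes, at 212, 377, 277, 283 and 178 FPKM. Library 2 was highest and library 5 lowest, as for Mpo. Lyz2, lysozyme, stood at 80.3 to 113 FPKM and Ccr2, the receptor that lets monocytes leave marrow, at 22.4 to 40.5. C1qa, a complement subunit made by resident macrophages, stood at 6.67, 3.14, 1.71, 5.33 and 6.12 FPKM, with library 3 lowest.

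All 35 listed red cell genes were expressed, led by the carbonic anhydrases Car1 (1388, 1038, 1078, 1187 and 1294 FPKM) and Car2 (630 to 815 FPKM). Tfrc, the transferrin receptor that imports iron, stood at 288, 164, 137, 179 and 216 FPKM, highest in library 1. Of the globin genes, Hba-a1 stood at 123, 94.6, 86.2, 120 and 166 FPKM, above the list's median of 53.5, and Hbb-bs at 64.0 to 124. Hba-a1 and Hba-a2 are near-identical copies, so their separate levels are uncertain. The lowest levels included those of genes used late in red cell formation: Slc4a1, the anion exchanger band 3, stood at 3.24 to 9.45 FPKM and Alas2, the red cell enzyme of haem synthesis, at 1.87 to 4.16.

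Megakaryocyte and platelet genes were all present. The 26 genes of the list were expressed in all 5 libraries with a median of 84.8 FPKM, and Pf4 led at 1429, 1018, 1543, 1310 and 1825 FPKM (mean 1425 ± 297). Its gene is on chromosome 5, 90772435 to 90773383 in GRCm38, close to Ppbp (90768518 to 90770063), which encodes another platelet chemokine and stood at 597 to 1026 FPKM. Itga2b, the αIIb integrin of the fibrinogen receptor, stood at 273 to 430 FPKM. Library 2 was lowest for Pf4, Ppbp and Itga2b.

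Eosinophil and basophil products were also high. Prg2, the major basic protein of eosinophil granules, stood at 1068, 994, 521, 768 and 364 FPKM, and Epx at 127, 96.8, 43.3, 72.3 and 32.4. Both had library 1 highest and library 5 lowest, 2.94-fold apart for Prg2 and 3.92-fold for Epx. The basophil proteases ran differently: Prss34 stood at 256, 324, 406, 235 and 287 FPKM and Mcpt8 at 183, 224, 307, 154 and 238, both highest in library 3 and lowest in library 4. The connective-tissue mast cell proteases Mcpt4 (at most 0.03 FPKM) and Tpsab1 (0) were not detected.

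Antibody RNA led the lymphoid genes. Of 25 B lymphoid and plasma cell genes, 14 were expressed (56%, beside the 49.4% of all protein-coding genes) and 2 were not detected. The immunoglobulin constant genes Igkc (2918 to 3990 FPKM), Igha (1545 to 2389) and Ighm (1024 to 1560) reached the level of ribosomal protein genes, and immunoglobulin genes together took 0.44% to 0.60% of the counts. Xbp1, the transcription factor of secretory plasma cells, stood at 82.5 to 92.2 FPKM. Rag1, which cuts antigen receptor genes, was among those not detected, and Pax5, the B cell identity factor, was 0 in libraries 1 to 4 and rested on 2 counts in library 5. Of 23 T and NK genes, 5 (21.7%) were expressed, or 1 at a limit of 2 FPKM and 11 at 0.5. Lat, an adaptor that megakaryocytes also make, led them at 38.0 to 69.9 FPKM. Cd3e, a T cell receptor subunit, had 3, 5, 3, 4 and 1 counts.

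Transcription factors followed the same lines. All 23 erythroid and megakaryocytic factors were expressed, with Lmo2, a bridging subunit of the GATA1 complex, at 188 to 197 FPKM and Klf1, a red cell factor, at 104 to 135. Of 26 myeloid factors 24 were expressed, led by Myb (153 to 180), which sustains progenitors, and Myc (93.7 to 103), which drives growth. Spi1, which encodes PU.1, was lower at 27.2 to 43.1 FPKM, and Cebpa at 15.5 to 23.2. Of 19 lymphoid factors 3 (15.8%) were expressed (Xbp1, Pou2af1 and Pou2f2), or 6 at a limit of 0.5 FPKM. Lef1, Eomes and Foxp3 were not detected.

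Of the GATA family Gata1 and Gata2 were expressed, Gata2, a stem and progenitor factor, at 21.3 to 27.8 FPKM. Gata3 lay between the limits at 0.35 to 0.99, and Gata4, Gata5 and Gata6 were not detected. In the RUNX list the shared partner Cbfb stood at 24.7 to 34.6 FPKM, Runx1 at 13.1 to 14.6, Runx3 at 6.23 to 8.74 and Runx2 at 3.35 to 5.68. Of 45 listed Hox, Meis and Pbx genes, 7 were expressed (among them Pbx2, Meis1, Pbx4, Hoxa9, Hoxa7 and Pbx3) and 25 were not detected, with Hoxa9, a factor of early progenitors, at 7.98 to 12.4 FPKM. Of 24 regulators that belong to other tissues none was expressed and 22 were not detected; Hnf4a, a liver and gut factor, was between the limits at 0.46 to 0.78.

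**Figure D3:**
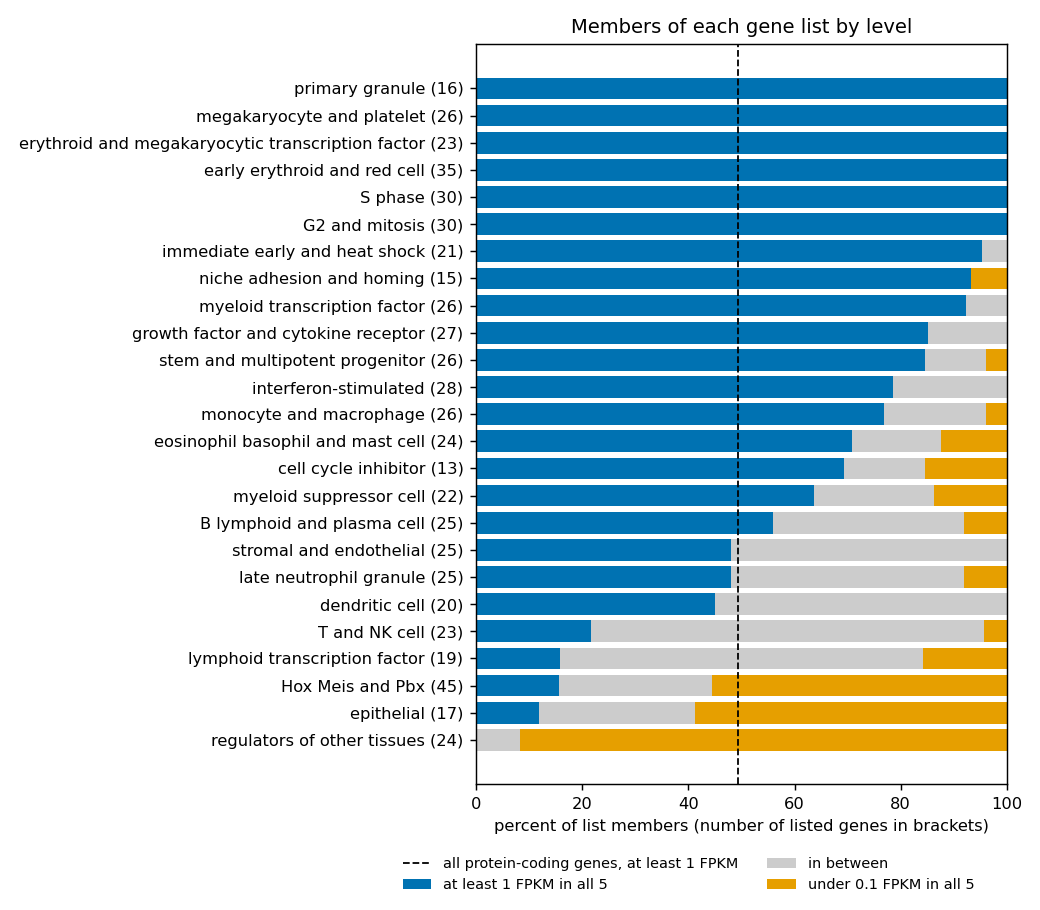
Share of each list that was expressed (1 FPKM or more in all 5 libraries), not detected (under 0.1 FPKM in all 5) or between, drawn as stacked bars with the number of listed genes in brackets and a dashed line at the 49.4% of all protein-coding genes that were expressed. The primary granule, red cell, megakaryocyte, S phase and G2 lists are 100% expressed, and 22 of 24 regulators of other tissues are not detected.

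The stem and multipotent progenitor list had 22 of 26 genes expressed, with a median of 14.3 FPKM. After Cd34 and Kit came Cd48 at 38.2 to 57.9 FPKM, a surface protein that the most primitive stem cells lack. Procr, a stem cell surface receptor, reached 0.33 to 0.77 and Fgd5, a stem cell marker, 0.13 to 0.44. Hoxb5, another stem cell marker, was not detected. Of 27 growth factor and cytokine receptors 23 were expressed: Epor, the erythropoietin receptor, stood at 40.2 to 51.2 FPKM, and Csf1r, the macrophage growth factor receptor, at 14.5 to 24.2. All 30 S phase and all 30 G2 and mitosis genes were expressed, with Pcna, the DNA polymerase clamp, at 330 to 363 FPKM and Top2a, which untangles replicated DNA, at 251 to 276. The cell cycle inhibitors Cdkn2a and Cdkn2b were not detected.

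Genes of niche, stroma and tumour-associated states came from 5 lists. Of 15 niche adhesion and homing genes 14 were expressed, with Cxcr4, the receptor that holds progenitors in marrow, at 63.1 to 85.3 FPKM and its ligand Cxcl12 at 8.45, 4.05, 11.3, 16.3 and 14.4. Of 25 stromal and endothelial genes 12 (48%) were expressed, near the 49.4% of all protein-coding genes. Apoe, a lipid carrier that macrophages also make, led them at 93.6 to 104. Of 20 dendritic cell genes 9 (45%) were expressed, also near that share, led by Bst2 at 51.9 to 66.2. Of 17 epithelial genes 2 (11.8%) were expressed, Krt18 (3.61 to 6.99) and Cdh1 (2.10 to 3.17), and 10 were not detected. Of 22 genes of myeloid suppressor cells 14 were expressed, led by Tgfb1 at 67.8 to 80.5, while Nos2, Arg2 and Ido1 were not detected and Arg1, the arginase of these cells, stood at 0.40 to 0.46. Xist, the RNA of the inactive X, stood at 24.1 to 49.9 FPKM and the Y-linked Ddx3y and Kdm5d at 0 in all 5 libraries.

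Most genes varied little between the libraries. Over 8600 protein-coding genes with a mean of at least 5 FPKM, the median SD of log2 CPM was 0.07, 5982 (69.6%) were under 0.1, and 19 reached 0.5. The common biological coefficient of variation was 10.9%. Housekeeping genes set the floor, with a list span of 0.02 in log2 CPM. The span is the highest minus the lowest library of a list's score, and the score is the mean over its genes of log2 CPM minus the mean of the 5 libraries.

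The 12 largest SDs of log2 CPM were those of Hspa1b (1.08), Fam220a (1.02), Ear6 (0.90), S100a9 (0.88), Ear2 (0.81), Epx (0.81), Ear1 (0.79), Cxcl12 (0.79), Prg3 (0.70), Prg2 (0.66), S100a8 (0.63) and Mest (0.62). Of these, Ear1, Ear2, Ear6, Epx, Prg2 and Prg3 are eosinophil granule genes, and the Ear genes are close paralogs whose reads may be shared. A single library carried part of these spreads. The SD was 0.48 for Hspa1b and 0.41 for Cxcl12 without library 2, and 0.27 for Fam220a without library 5. It was 0.55 for S100a9 and 0.42 for S100a8 without library 3, and 0.47 for Prg2 and 0.53 for Prg3 without library 5. For Ear1, Ear2, Ear6, Epx and Mest it stayed at 0.53 or more whichever library was left out. The 6 smallest were Sbf1, Dctn4, Cpsf6, Tmem222, Ubr7 and Nup188, with Sbf1 and Dctn4 at 0.0052. They are the lowest of 8600 SDs, each from 5 libraries, so these 6 need not be the steadiest genes. The order among them depended on the setting: with median-of-ratios scaling Sbf1 stood at 0.010 and Dctn4 at 0.0052, and with 1 library left out Sbf1 ran from 0.0027 (without library 4) to 0.012 (without library 2).

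**Figure D4:**
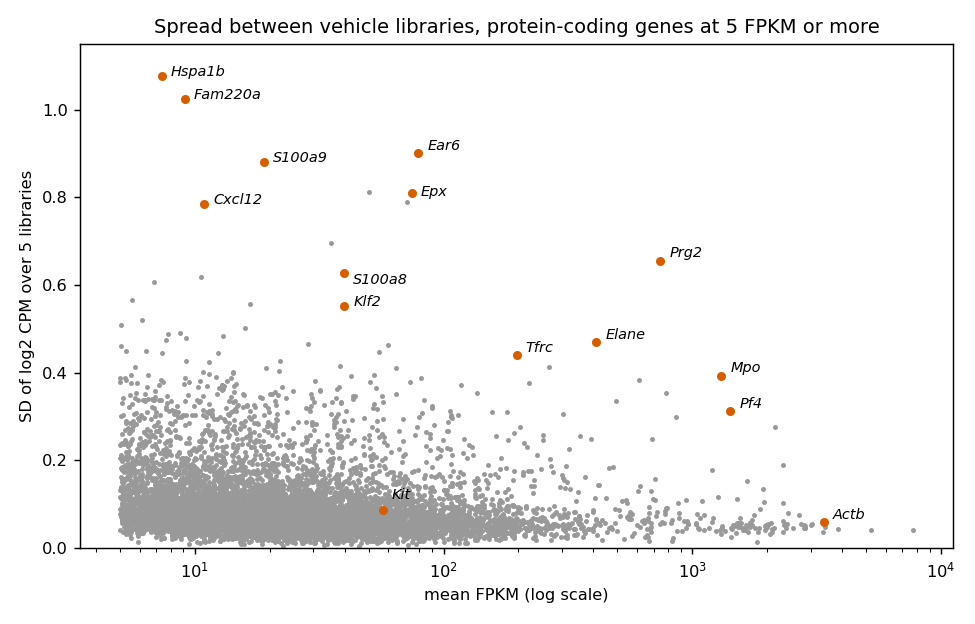
SD of log2 CPM over the 5 libraries against mean FPKM (log axis) for 8600 protein-coding genes, with examples named in orange. Most points lie under 0.1, and Hspa1b (1.08), Fam220a (1.02), Ear6 (0.90) and S100a9 (0.88) lie highest.

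Primary granule genes had scores of -0.03, 0.30, 0.14, 0.03 and -0.44 in libraries 1 to 5 (span 0.74). Of 16 genes, 13 were highest in library 2 and 15 lowest in library 5, where 22.1% and 24.7% of all 13574 genes past the count filter were. Leaving out library 5 took the span to 0.33. In bulk RNA, fewer cells of a type and less RNA per cell cannot be told apart.

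Red cell genes were highest in library 5, where granule genes were lowest. Their scores were 0.03, -0.14, -0.21, 0.03 and 0.29 (span 0.50), with 31 of 35 genes highest in library 5 (22.6% of all genes) and 20 lowest in library 3 (21.4%), and without library 5 the span was 0.24. Megakaryocyte genes shared the high value in library 5 but were low in library 2: the scores were -0.01, -0.35, 0.23, -0.12 and 0.26 (span 0.61), and 25 of 26 were lowest in library 2 (20.7%). Without library 2 that span was 0.38. Late neutrophil genes spanned 1.08, with scores of -0.47, 0.23, 0.61, 0.07 and -0.43 and library 3 highest. Their span was 0.69 without library 3, and 0.76 with members of at least 5 FPKM only.

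The eosinophil, basophil and mast cell list spanned 0.65 with library 5 and 0.34 without it. Divided after the values were seen, its 6 eosinophil granule genes had scores of 0.84, 0.64, -0.57, 0.05 and -0.97 (span 1.81). Of these, 5 of 6 were highest in library 1 (20.4% of all genes) and 6 of 6 lowest in library 5 (24.7%). Its 8 basophil genes had scores of -0.17, 0.06, 0.48, -0.25 and -0.12 and were all highest in library 3 (21.4% of all genes). Monocyte and macrophage genes were divided after the values were seen as well: 11 tissue macrophage genes had scores of 0.40, -0.15, -0.59, 0.25 and 0.09, and 9 classical monocyte genes had -0.19, 0.32, 0.15, 0.12 and -0.40. These divisions were made on the values they describe, and no difference between them was tested.

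**Figure D5:**
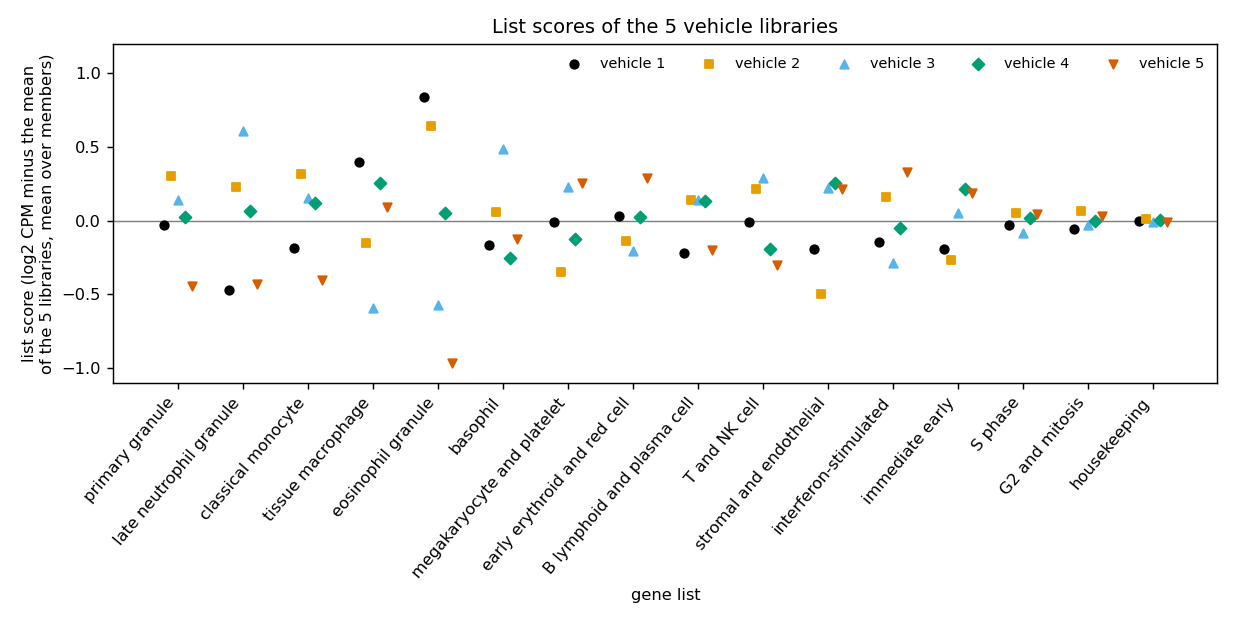
List scores (mean over genes of log2 CPM minus the mean of the 5 libraries) by library for lineage, stress, cell cycle and housekeeping lists, 1 point per library. Library 5 is at -0.44 for primary granule genes and 0.29 for red cell genes, library 2 is at -0.35 for megakaryocyte genes, and housekeeping genes span 0.02.

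Lists of factors and of the cell cycle had narrower spans than primary granule genes. Erythroid and megakaryocytic factors spanned 0.11, with values of 0.06 without library 2 or without library 5, myeloid factors 0.23, lymphoid factors 0.33, and stem and multipotent progenitor genes spanned 0.17. S phase genes spanned 0.13 (0.07 without library 3) and G2 and mitosis genes 0.12 (0.07 without library 2). Of the 30 G2 and mitosis genes, 20 were highest in library 2 (22.1% of all genes) and 17 lowest in library 1 (22.3%). Stromal genes spanned 0.76 with 15 of 22 lowest in library 2 (20.7% of all genes). Their span was 0.43 without library 2 or with members of at least 5 FPKM only. Suppressor cell genes spanned 0.31 and 0.15 without library 3. The 3 CK2 subunit genes, the kinase that the other group's inhibitor targets, were expressed at 110 to 117 (Csnk2b), 75.4 to 82.0 (Csnk2a1) and 8.62 to 9.89 FPKM (Csnk2a2) and spanned 0.11, or 0.06 without library 3.

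Libraries 2 and 5 stood farthest apart. The first principal component of log2 CPM held 36.3% of the variance and placed the libraries at -6.29, 17.7, 9.84, 2.01 and -23.3, so libraries 2 and 5 were its ends. The second component held 27.3%, with libraries 1 (17.5) and 3 (-18.0) at its ends. The lowest chi-square on counts, that of libraries 2 and 4, was 10.96 per degree of freedom against counting error only. None of the pairs therefore looked like 1 library deposited again. By the SD of the log2 CPM difference, the closest pair was libraries 3 and 4 (0.281). Library 4 was the nearest to the middle: it was highest for 13.5% and lowest for 10.9% of genes.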

How the data were processed

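Total RNA of 5 vehicle samples was made into stranded libraries and sequenced as 75 bp pairs, per the labels' protocols. The submitters' processing notes name RSEM 1.2.31, Bowtie2, DESeq2 and mm10. For the annotation, strand setting and filters, nothing is given in the sources used here. The authors deposited estimated counts, all whole numbers here, and FPKM per gene. FPKM divide by an effective length that can differ between libraries, so SDs, list scores and principal components were taken from counts. Folds and highest or lowest libraries given beside the FPKM of a single gene were taken from FPKM. Of the gene identifiers 37570 matched GENCODE M21 (GRCm38), 1317 did not, and 2 lines without an identifier were left out. Mitochondrially encoded genes were not analysed here, and some members of the lists are not reported here by name. There were 0 unmapped value columns.

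In R 4.3.3 with edgeR 4.0.16, counts were filtered (filterByExpr, minimum count 10), scaled by TMM (factors 0.998 to 1.002) and turned to log2 CPM with a prior count of 2. The dispersion used an intercept only. On simulated data the pass rule covered the dispersions of single genes and the ranking by SD, and not the common coefficient of variation. With library totals of 37569160 to 43636152, counting error grows as the counts of a gene fall. Its share of the SDs of log2 CPM was not separated out. Named genes were the 6 markers, the 15 highest, the 2 to 6 highest and the undetected members of each list, whole GATA, RUNX and sex-linked sets, and the 12 largest and 6 smallest SDs of log2 CPM at a mean of 5 FPKM or more. Others (such as C1qa, Ltf, Ly6g, Alas2, Slc4a1, Hbb-bs, Spi1, Cebpa, Csf1r, Epor, Procr, Fgd5, Cd3e, Pax5, Arg1, Hnf4a, Klf1, Hspa1a, Junb and Ier3) and those in figures were named after their values were seen. The genes and lists were chosen with earlier results of these data known. Alternatives changed the expression limit, scaling, filter, prior count and libraries.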

Additional observations from a re-analysis of the deposited data

Results flagged for a closer look

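In 215 values checked over the 5 libraries, 2 had 1 library whose gap to the nearest other, over the whole range, passed Dixon's critical value of 0.71. Chance flags about 1 in 20 groups. The FPKM of Cpsf6, a subunit of an mRNA 3′ end processing complex, was 69.8 in library 3 and 72.7 to 72.9 in the others, while its CPM varied little (SD of log2 CPM 0.0064). The FPKM of Rpl32, a protein of the large ribosomal subunit, was 3183 in library 1 and 2911 to 2988 in the others.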

How the results depend on the processing

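No paired analysis was possible because the 5 libraries form 1 group and no result comes from a test. The count of genes expressed (10470) came to 11125 at 0.5 FPKM, 9746 at 2 FPKM and 10271 at 1 TPM, and to 10483 to 10529 with 1 library left out. The genes holding 50% of the FPKM were 662 without the genes picked by ribosomal protein symbols. The coefficient of variation was 8.80% in protein-coding genes only, and 10.01% to 11.8% with 1 library left out. Expressed lymphoid factors were 6 at 0.5 FPKM, monocyte and macrophage genes 13 at 2 FPKM, and T and NK genes 11 at 0.5 FPKM, 1 at 2 FPKM and 2 at 1 TPM. With members of at least 5 FPKM only, spans were 0.20 for dendritic cell, 0.11 for Hox, Meis and Pbx and 0.56 for suppressor cell genes. With 1 library left out, spans ran from 0.057 to 0.11 (erythroid and megakaryocytic factors), 0.33 to 0.75 (primary granule), 0.34 to 0.67 (eosinophil, basophil and mast cell), 0.24 to 0.50 (red cell), 0.47 to 0.79 (epithelial, lowest without library 5), 0.068 to 0.13 (S phase), 0.15 to 0.31 (suppressor cell), 0.28 to 0.58 (immediate early and heat shock, lowest without library 2) and 0.062 to 0.13 (CK2). The cause was not tested. Depth limits the genes near 0 FPKM, where a level rests on a few counts.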

Other observations

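Of 28 interferon-stimulated genes 22 were expressed, led by Ifitm3, a membrane protein that blocks virus entry, at 138 to 189 FPKM. The list scores were -0.15, 0.16, -0.29, -0.05 and 0.33 in libraries 1 to 5. Of the 28 genes, 21 were highest in library 5 (22.6% of all genes past the count filter) and 18 lowest in library 3 (21.4%). The red cell genes had the same ends. Irf7, the factor that amplifies type I interferon, stood at 13.8, 18.04, 15.01, 15.4 and 24.5 FPKM.

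Immediate early genes, which cells switch on quickly after a stimulus, had scores of -0.19, -0.27, 0.05, 0.22 and 0.19 over 11 genes, a division made after the values were seen. Of the 11, 4 were lowest in library 1 (22.3% of all genes) and 7 in library 2 (20.7%), while 2 (Junb and Ier3) were highest in library 1 (20.4%). Fos stood at 264, 280, 325, 386 and 349 FPKM and Fosb at 35.3, 42.5, 57.4, 62.8 and 76.7. The mean scores of the 9 heat shock genes were 0.10, -0.42, 0.01, 0.02 and 0.30. However, only 3 of the 9 (Hspa1a, Hspa1b and Dnajb1) were lowest in library 2 (20.7% of all genes). Another 6 were lowest in library 3 (21.4%), and 5 were highest in library 1 (20.4%). Hspa1b, an inducible HSP70, stood at 6.07, 1.83, 9.27, 6.55 and 13.2 FPKM, and its copy Hspa1a, with which it may share reads, at 3.59, 0.99, 6.04, 5.06 and 9.07. Combined, the immediate early and heat shock genes spanned 0.58, or 0.28 without library 2.

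The unit can change which genes look stable. Fam220a had CPM of 21.8, 15.8, 15.3, 14.5 and 3.50, 6.22-fold apart, but FPKM of 12.5, 9.79, 9.96, 8.98 and 4.32, 2.89-fold apart. Sbf1 had CPM of 187 to 189 and FPKM of 43.8 to 48.1. Over the 8600 ranked genes, 373 (4.34%) had an SD of log2 FPKM over CPM of at least 0.1, and the median was 0.02. The cause was not tested.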
